A study of Mus musculus with 6 samples.

Results

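The genes described here encode 10 proteins of the specific, or secondary, granules of mouse neutrophils: Ltf, Camp, Ngp, Lcn2, Chil3, Cd177, Mmp8, Fcnb, Olfm4 and Lyz2. They were taken by symbol from the 41388 genes of the count tables, and each symbol matched 1 Ensembl identifier. Neutrophils from the marrow of C57BL/6 mice had been labelled with DiBAC4(3) at 250 nM, a dye taken up by depolarized cells, and then given the calcium ionophore ionomycin at 100 nM. Within a window of 2 to 4 minutes after stimulation, 20000 depolarized cells and 20000 polarized cells were sorted for RNA. The 3 depolarized and 3 polarized libraries form 3 pairs by a code in their titles, named A, B and C, and values per library are given in that order. All 6 libraries held stimulated and dye-labelled cells, and no unstimulated library was analysed here. The sources used here do not give the age or sex of the mice, or how many mice stand behind a library. The depolarized library of pair B carries run label 1 and the other libraries run label 2.

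Neutrophil granules are filled in the order in which their proteins are made. Specific granule proteins are made mostly at the myelocyte and metamyelocyte stages, after the enzymes of the azurophil granules, and are stored until calcium signals drive exocytosis. Synthesis largely ends before the mature cell leaves the marrow, and the contents range from iron-binding proteins and antimicrobial peptides to a collagenase, lectins and a surface antigen.

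Total counts ran from 16904969 to 20381489 over the 6 libraries. The neutrophil markers S100a8, S100a9, Retnlg, Ly6g, Csf3r and Cxcr2 summed to between 152191 and 169249 CPM (counts scaled to a common library total) in depolarized libraries and to between 169804 and 209492 CPM in polarized libraries. Of these 6, 4 were lower in the depolarized mean, while Csf3r and Cxcr2 were higher in it. Csf3r was at 2265, 2403 and 2191 CPM in depolarized and 1680.4, 1496 and 1518 CPM in polarized libraries. The early-stage and primary granule markers Mpo, Elane, Prtn3, Ctsg, Ms4a3 and Cebpa summed to between 9.42 and 24.0 CPM in depolarized and between 45.3 and 303 CPM in polarized libraries, with 5 of the 6 lower in the depolarized mean and none at 0 counts over either group. Cebpa made up most of the depolarized sums of pairs A and B. It was at 8.14, 11.2 and 10.6 CPM in depolarized and 10.3, 13.1 and 6.48 CPM in polarized libraries. Monocyte markers (Csf1r, Ccr2, Ly6c2, F13a1, Cx3cr1 and Ms4a6c) summed to between 816 and 903 CPM in depolarized and between 895 and 1174 CPM in polarized libraries. Eosinophil markers summed to between 44.2 and 165 CPM in depolarized and between 36.7 and 423 CPM in polarized libraries, while marker lists of B cells, T and NK cells and erythroid cells reached at most 73.6 CPM in depolarized and 45.6 CPM in polarized libraries. In bulk libraries, fewer cells of a type and less RNA per cell cannot be told apart.

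Of the 10 transcripts, 4 were lower in depolarized cells. Chil3, Camp and Ltf fell, by 2.98-fold, 2.74-fold and 2.60-fold. Fcnb fell as well, with 25 counts over the depolarized and 904 over the polarized libraries, but it passed the filter on low counts only through the polarized group and so had to differ to be tested. Ngp (2.17-fold lower as fitted), Lcn2, Olfm4, Cd177, Mmp8 and Lyz2 did not pass the test. Calls needed an adjusted p under 0.05 (Benjamini-Hochberg over all 9971 genes tested) in edgeR's quasi-likelihood test, in which the pair was a block. The rule called 4 of the 10 genes lower (3 of 9 with Fcnb left out) and 0 higher, while 0.241% of all genes tested were called lower and 0.0802% higher. All 10 were fitted below 0, against 50.4% of all genes tested, and 8 of 10 were below 0 in each of the 3 pairs, against 8.91%. The median log2 fold change of the 10 genes, depolarized minus polarized, was -0.80, and that of all genes tested was -0.00. Fcnb is included in these counts and in the median, which are given as a description. Without the block edgeR called 0 genes at all, with 511 at an unadjusted p under 0.05 (6 of the 10 granule genes among them), and DESeq2 with the block called Fcnb alone of the 10, beside 0.231% of all genes lower.

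**Figure D1:**
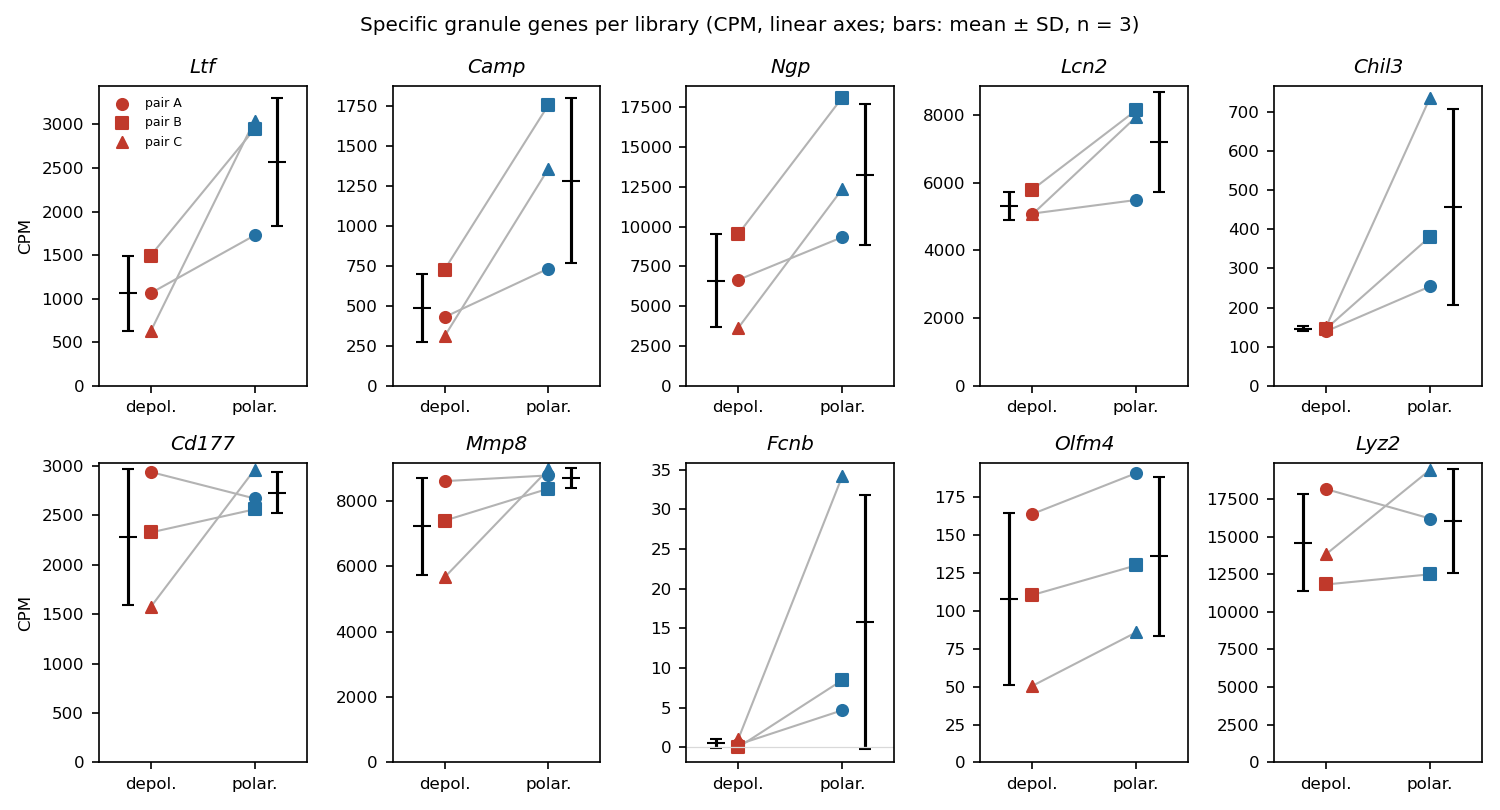
Level of each specific granule gene (CPM, linear axes) in the 3 depolarized (red, left) and 3 polarized (blue, right) libraries, with grey lines joining the libraries of a pair and bars for the mean ± SD (n = 3). For Ltf, Camp, Chil3 and Fcnb every red point lies below every blue point, while the groups overlap for the other 6 genes.

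The sequence upstream of the 4 genes that fell and of Ngp, which lies between 2 of them on chromosome 9, is shown because these are the members that differed most. Each line gives the 250 bases before the RefSeq start site (GRCm38.p6), 5′ to 3′ on the strand of the gene, and the RefSeq start of Ngp and of Fcnb differs from that in the files. Capitals mark matches to either of a pair of motif cores.
Ltf, chr9:111019042-111019291, plus strand: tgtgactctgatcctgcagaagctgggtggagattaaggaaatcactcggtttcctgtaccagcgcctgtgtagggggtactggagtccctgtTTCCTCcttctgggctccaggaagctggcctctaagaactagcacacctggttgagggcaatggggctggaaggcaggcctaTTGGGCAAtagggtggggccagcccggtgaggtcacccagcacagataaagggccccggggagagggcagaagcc
Camp, chr9:109849457-109849706, minus strand: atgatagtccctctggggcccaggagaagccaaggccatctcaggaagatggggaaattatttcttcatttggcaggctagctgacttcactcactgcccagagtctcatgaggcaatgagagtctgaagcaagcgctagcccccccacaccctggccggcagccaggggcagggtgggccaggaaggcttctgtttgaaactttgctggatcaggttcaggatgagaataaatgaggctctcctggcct
Ngp, chr9:110419558-110419807, plus strand: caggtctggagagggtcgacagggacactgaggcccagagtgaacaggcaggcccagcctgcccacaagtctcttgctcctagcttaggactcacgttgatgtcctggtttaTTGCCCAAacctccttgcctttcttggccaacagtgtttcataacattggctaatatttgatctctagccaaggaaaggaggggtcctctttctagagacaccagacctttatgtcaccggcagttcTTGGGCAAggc
Chil3, chr3:106167565-106167814, minus strand: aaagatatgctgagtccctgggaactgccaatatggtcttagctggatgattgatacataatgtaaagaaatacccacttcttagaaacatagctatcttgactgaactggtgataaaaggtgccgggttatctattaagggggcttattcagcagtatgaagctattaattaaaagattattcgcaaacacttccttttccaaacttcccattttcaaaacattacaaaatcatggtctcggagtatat
Fcnb, chr2:28084879-28085128, minus strand: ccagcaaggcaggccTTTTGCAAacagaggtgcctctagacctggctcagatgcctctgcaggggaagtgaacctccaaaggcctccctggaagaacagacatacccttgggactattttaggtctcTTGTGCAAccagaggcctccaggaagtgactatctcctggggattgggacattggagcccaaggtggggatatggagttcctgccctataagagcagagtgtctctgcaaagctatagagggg
The cores searched were TTGCNNAA (TTNNGCAA on the other strand), part of the site of C/EBP factors, and GAGGAA, which is part of the site of PU.1 and reads TTCCTC on the other strand. Both factor families are known to act on granule genes during neutrophil development. The C/EBP core was present in 5 of the 10 members' windows (Ltf, Ngp, Lcn2, Mmp8 and Fcnb), against 9.56% of 32851 RefSeq windows of the same length. The PU.1 core was present in 5 of 10 (Ltf, Lcn2, Cd177, Mmp8 and Olfm4), against 23.3%. Ngp and Fcnb each held 2 C/EBP cores, and those of Ngp began 138 and 11 bases before the start site. By the start of Ngp used for the counts (110419750), the core nearer the RefSeq start lies within the gene. The same holds for the PU.1 core of Lcn2, a minus strand gene whose start for the counts is 32387797. Camp, Chil3 and Lyz2 held neither core. Windows with a C/EBP core belonged to genes that fell (Ltf, Fcnb) and to genes that were not called (Ngp, Lcn2, Mmp8), and the match is a description of the letters only.

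Among the iron-binding and iron-scavenging members, Ltf encodes lactotransferrin, which binds free iron, and Lcn2 encodes lipocalin 2, which captures bacterial siderophores. Ltf (ENSMUSG00000032496, chromosome 9, 111019292 to 111042766, GRCm38) was at 1064, 1495 and 625 CPM in depolarized libraries, against 1727, 2948 and 3044 CPM in polarized libraries. Every depolarized library was below every polarized library, and the depolarized library of pair C was the lowest of the 6. Trf, the transferrin gene, was at 35.9, 28.4 and 41.1 CPM in depolarized and 32.2, 20.3 and 37.0 CPM in polarized libraries, and shares 0 windows of 50 bases with the Ltf transcript. Groups that do not overlap, with the depolarized one lower, occurred in 3.14% of all genes tested. The log2 fold change of Ltf was -1.38 ± 0.28 (SE, edgeR adjusted p = 0.0427). Pair A differed by -0.70, pair B by -0.98 and pair C by -2.28 on the log2 scale. Without pair C the fitted value was -0.83 (edgeR adjusted p 1.20e-13, on fewer residual degrees of freedom). The call was lost with DESeq2 (adjusted p 0.947), with robust edgeR (0.248), with at least 50 counts required in at least 3 libraries (0.0508) and with a trend on gene length removed (0.216). Ltf also lost its call in edgeR without the pair block (adjusted p 0.242).

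Lcn2 (chromosome 2, 32384633 to 32387797) was more abundant, with a fold change nearer to 0. It was at 5089, 5795 and 5063 CPM in depolarized and 5491, 8141 and 7944 CPM in polarized libraries. The polarized library of pair A lay within the depolarized range, so the groups overlapped, while the polarized libraries of pairs B and C lay above it. Its log2 fold change of -0.48 ± 0.20 (SE) was not called (edgeR adjusted p = 0.652), but the smaller value without pair C was (-0.29, edgeR adjusted p = 0.0350). The fit without pair C had fewer residual degrees of freedom and called 5.13% of all genes tested lower, against 0.241% with all pairs. The SD of Lcn2 was 415 CPM in depolarized cells and 1477 CPM in polarized cells, that is 7.81% and 20.5% of the mean.

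Camp and Ngp belong to the cathelicidin-related group. Camp encodes the precursor from which the antimicrobial peptide CRAMP is released, and Ngp encodes neutrophilic granule protein, a related protein with a cystatin-like fold. Camp (chromosome 9, 109847375 to 109849456) was at 429.6, 726 and 309 CPM in depolarized libraries, against 733, 1755 and 1357 CPM in polarized libraries. The groups did not overlap, though the highest depolarized library, of pair B, was close to the lowest polarized one, of pair A. The log2 fold change of Camp was -1.46 ± 0.25 (SE, edgeR adjusted p 0.0144), with pair differences of -0.77, -1.27 and -2.13. It became -1.01 without pair C, and the call was lost with DESeq2 (adjusted p 0.204) and with the gene length trend removed (adjusted p 0.101). Camp also lost its call in edgeR without the pair block (adjusted p 0.225).

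Ngp (chromosome 9, 110419750 to 110423010) had the second highest mean CPM of the members in polarized cells, after Lyz2. It was at 6659, 9539 and 3651 CPM in depolarized and 9336, 18101 and 12359 CPM in polarized libraries. Only the depolarized library of pair B overlapped the polarized range, where it stood just above the polarized library of pair A. Its fitted log2 fold change of -1.12 ± 0.25 (SE) missed the threshold (edgeR adjusted p = 0.0817), with 3 of 3 pairs below 0 (-0.49, -0.92 and -1.76). Leaving out pair A (-1.47, edgeR adjusted p = 0.0211) or pair C (-0.69, 3.07e-10), or applying no filter on low counts (-1.11, 3.65e-10), brought Ngp past it. The fold change was no larger without the filter, and the fits without a pair had fewer residual degrees of freedom. Ngp took 15.4%, 24.2% and 11.8% of the summed CPM of the 10 genes in depolarized libraries, and 20.6%, 33.0% and 21.7% in polarized libraries.

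Camp, Ngp and Ltf share a stretch of chromosome 9 of 1.20 Mb from the start of Camp to the end of Ltf. The gaps are 570.3 kb from Camp to Ngp and 596 kb from Ngp to Ltf. Mmp8 is on the same chromosome but far away, at 7558429 to 7568486. The exons of none of the 10 genes overlapped those of another gene by the exon positions in the files.

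The lectin members gave the largest folds. Fcnb encodes ficolin B, a pattern recognition lectin that in mice is made by immature myeloid cells, and Chil3 encodes a chitinase-like lectin of mouse neutrophils and macrophages. Fcnb (chromosome 2, 28076378 to 28084885) had 7, 0 and 18 counts in depolarized libraries, against 90, 144 and 670 counts in polarized libraries. Its level was 0.343, 0 and 1.06 CPM in depolarized and 4.66, 8.46 and 34.2 CPM in polarized libraries, and the polarized library of pair C was the highest by a wide margin. The ratio was 13.6-fold lower in depolarized cells in pair A and 32.1-fold lower in pair C. In pair B it was at least 54.1-fold lower, taken against the floor of 3 counts in that library (0.156 CPM). The fitted log2 fold change of -5.17 ± 0.46 (SE) was called (edgeR adjusted p = 1.17e-05). It stayed between -5.75 and -4.65 when a pair was left out, and Fcnb was also called with DESeq2 (adjusted p 0.00775), but not without the pair block (adjusted p 0.102). All of these fits share the limit given above. Fcnb passed the filter on low counts only through the polarized group, so it had to differ to be tested.

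Chil3 (chromosome 3, 106147554 to 106167564) was almost the same in every depolarized library, at 139.5, 146 and 151 CPM, against 254, 381 and 736 CPM in polarized libraries. The SD was 4.05% of the mean in depolarized cells and 54.6% in polarized cells, so the spread between pairs lay in the polarized group. Chil3 had a log2 fold change of -1.57 ± 0.25 (SE, edgeR adjusted p = 0.0103), and its pair differences were -0.86, -1.38 and -2.28. Without pair C it was -1.11. The call was lost with DESeq2 (adjusted p 0.149), in edgeR without the pair block (adjusted p 0.152) and with the gene length trend removed (adjusted p 0.0787). The close copy Chil4 shares 18.5% of the 50-base windows of the longest Chil3 transcript, so part of the reads could have been counted for either gene or dropped. Chil4 held 2, 0 and 1 counts in depolarized and 3, 6 and 4 counts in polarized libraries, against 8207 and 25841 counts of Chil3 over the depolarized and polarized libraries. Chil5 shares 0 such windows with Chil3 and was at 20.3, 20.9 and 14.9 CPM in depolarized and 24.0, 30.9 and 32.7 CPM in polarized libraries, and Chil6 had at most 1 count in any library. Fcna, the other ficolin gene, shares 0 windows with Fcnb and was at 1.47, 2.35 and 1.24 CPM in depolarized and 1.81, 5.99 and 1.58 CPM in polarized libraries.

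Monocytes and macrophages can also express Chil3, Fcnb and Lyz2. Of the monocyte markers, Ccr2 had 1, 0 and 9 counts in depolarized and 30, 25 and 22 counts in polarized libraries, and Ms4a6c had 2, 0 and 0 counts in depolarized and 7, 1 and 43 counts in polarized libraries. By the group means 4 of the 6 monocyte markers were lower in depolarized cells. The others, Csf1r and Cx3cr1, were higher in depolarized cells in each pair. Csf1r was at 168, 166 and 157 CPM in depolarized and 112, 102 and 105 CPM in polarized libraries. Cx3cr1 was at 0.196, 0.730 and 0.532 CPM in depolarized and 0.155, 0.0587 and 0.255 CPM in polarized libraries. For Cx3cr1 these are 4, 14 and 9 counts against 3, 1 and 5, with both libraries of pair A near the floor of 3 counts. The macrophage markers C1qa, C1qb, C1qc, Adgre1, Vcam1, Mertk and Cd5l summed to 153, 110.2 and 114 CPM in depolarized and 123, 106 and 94.7 CPM in polarized libraries. Adgre1 made up most of this sum and was higher in depolarized cells, whereas the other 6 markers were lower in the depolarized mean. C1qb, for example, was at 3.04, 1.46 and 2.54 CPM in depolarized and 3.67, 12.6 and 4.18 CPM in polarized libraries. The part of the monocyte markers and of the early-stage markers in the differences of Fcnb, Chil3, Camp and Ltf was not tested.

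The enzyme members were abundant and were not called. Mmp8 encodes neutrophil collagenase, and Lyz2 encodes lysozyme M, which cleaves bacterial cell walls. Mmp8 (chromosome 9) was at 8605, 7396 and 5659 CPM in depolarized libraries and at 8780.3, 8376 and 8965 CPM in polarized libraries. The depolarized library of pair C stood below the other 5 libraries, which lay between 7396 and 8965 CPM. The log2 fold change of Mmp8 was -0.36 ± 0.21 (SE, edgeR adjusted p 0.898), and -0.09 without pair C.

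Lyz2 (chromosome 10, 117277334 to 117282274) was the most abundant member in every depolarized library, at 18148, 11816 and 13828 CPM, against 16196, 12492 and 19427 CPM in polarized libraries. The groups overlapped, and the pairs differed in direction: 0.16, -0.08 and -0.49. Lyz2 was fitted at -0.20 ± 0.21 (SE, edgeR adjusted p 1), and 0.05 without pair C. The copy Lyz1 shares 15.4% of the 50-base windows of the longest Lyz2 transcript, which makes part of the Lyz2 count uncertain. Lyz1 was at 11.6, 8.70 and 10.3 CPM in depolarized and 13.8, 9.34 and 13.5 CPM in polarized libraries, so it was a small addition beside Lyz2.

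The remaining members are Cd177, which encodes a surface antigen that neutrophils also store in granules, and Olfm4, which encodes olfactomedin 4, a granule glycoprotein found in a subset of neutrophils. Cd177 (chromosome 7, 24743985 to 24760311) was at 2938, 2326 and 1571 CPM in depolarized and 2669.9, 2559.8 and 2961 CPM in polarized libraries. It was higher in depolarized cells in pair A and lower in pairs B and C, and the depolarized libraries spread more widely, with an SD of 685 CPM against 207 CPM in polarized cells. Cd177 was fitted at -0.37 ± 0.23 (SE, edgeR adjusted p 0.932), and 0.01 without pair C. Olfm4 (chromosome 14, 80000302 to 80021930) was at 164, 110.5 and 50.5 CPM in depolarized and 191, 130.1 and 85.9 CPM in polarized libraries. Here the pairs differed more than the groups: both libraries of pair A were the highest of their group and both of pair C the lowest. The log2 fold change of Olfm4 was -0.47 ± 0.19 (SE, edgeR adjusted p = 0.644), with 3 of 3 pairs below 0, and -0.22 without pair C.

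**Figure D2:**
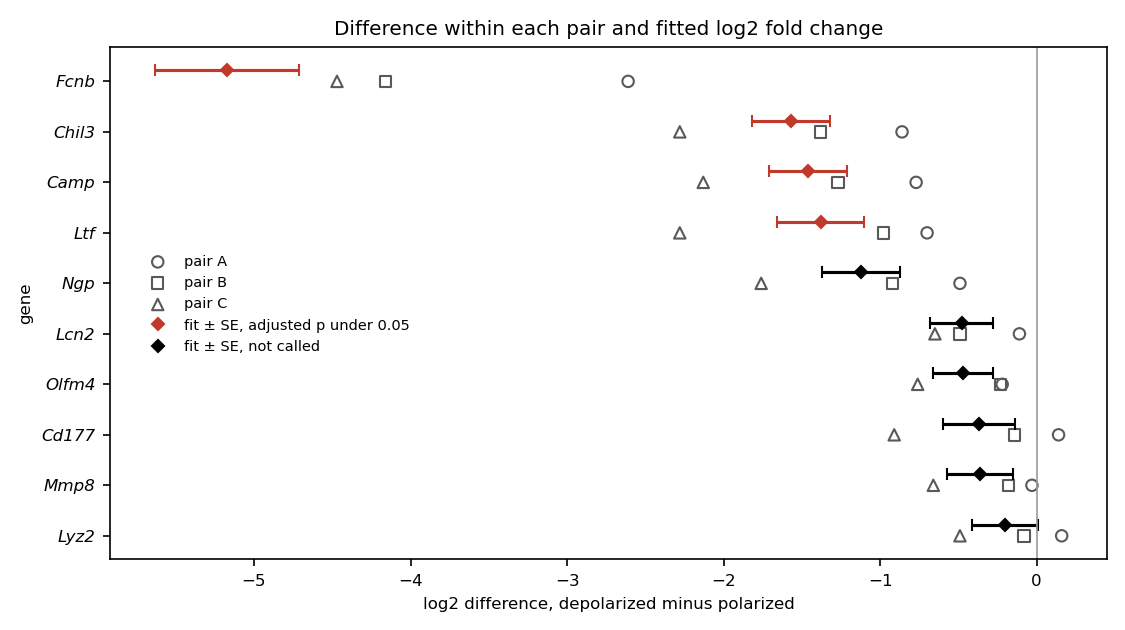
Log2 difference of each gene, depolarized minus polarized, within pair A (circle), B (square) and C (triangle) on log2(CPM + 0.5), with the edgeR fitted log2 fold change ± SE as a diamond (red where the adjusted p was under 0.05). Pair C gave the lowest value for every gene on this scale, which for Fcnb depends on the pseudocount. The fit of Fcnb (-5.17) lies below its pair values because the pseudocount shrinks differences at low levels.

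The size of the difference varied between pairs for every member. In 10 of 10 genes the lowest of the 3 pair differences was that of pair C, against 29.4% of all genes tested. The median difference of the 10 genes was -0.35 in pair A, -0.71 in pair B and -1.34 in pair C, while that of all genes tested was -0.06, 0.03 and 0.21. The polarized library of pair C also had the highest early-stage marker sum, 303 CPM, and the lowest TMM scaling factor, 0.876, against 0.967 to 1.082 in the other 5 libraries. The part of that library in the size of the differences was not tested beyond the fits without pair C, in which 6 of the 10 genes were called lower (Ltf, Camp, Ngp, Lcn2, Chil3 and Fcnb), beside 5.13% of all genes tested. Without pair A, 5 of the 10 were called lower (0.737% of all genes), and without pair B 4 of the 10 (0.358%). With all pairs, robust edgeR called 3 of the 10 lower (Camp, Chil3 and Fcnb, beside 0.211% of all genes). The fit with a gene length trend removed called Fcnb alone (0.0702%). Fcnb is among the genes called in each of these fits, and it passed the filter on low counts only through the polarized group.

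The 10 genes together took 4.32%, 3.94% and 3.09% of all counts in depolarized libraries, against 4.54%, 5.49% and 5.69% in polarized libraries. In summed CPM this was 37832 ± 6302 in depolarized and 52396 ± 6157 in polarized cells (SD, n = 3 each), and the polarized sum was 1.05, 1.39 and 1.84 times the depolarized one in the 3 pairs. Lyz2 made up as much as 44.7% of a depolarized sum and 35.7% of a polarized sum. Without Lyz2 the sum was 23235 ± 5468 CPM in depolarized and 36358 ± 6679 CPM in polarized cells, and the 3 depolarized sums were all below the 3 polarized ones.

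Levels per length gave a similar order of the genes in both groups. In RPKM, which is CPM per kilobase of gene length, depolarized cells held Lyz2 at 11530.2 ± 2555, Ngp at 5437 ± 2419, Mmp8 at 2943 ± 604, Lcn2 at 2309 ± 180.4, Cd177 at 840.2 ± 253, Camp at 812 ± 357 and Ltf at 387 ± 159 (SD, n = 3). Chil3 at 89.3 ± 3.62, Olfm4 at 66.0 ± 34.6 and Fcnb at 0.351 ± 0.406 RPKM were the lowest. In polarized cells the order was Lyz2 at 12669 ± 2741, Ngp at 10899.9 ± 3658, Mmp8 at 3549.5 ± 123, Lcn2 at 3124 ± 641, Camp at 2133 ± 857, Cd177 at 1007 ± 76.4, Ltf at 938 ± 268, Chil3 at 280.1 ± 153, Olfm4 at 82.7 ± 32.2 and Fcnb at 11.8 RPKM, where the SD exceeded the mean. Camp and Cd177 were the only neighbours that changed places. In depolarized cells Ngp and Mmp8, Mmp8 and Lcn2, Cd177 and Camp, Camp and Ltf, and Chil3 and Olfm4 had overlapping libraries. In polarized cells Lyz2 and Ngp, Mmp8 and Lcn2, Lcn2 and Camp, and Cd177 and Ltf did.

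Ratios between the members were read in 2 sets, which were formed after the values were seen and are given without a test. Among Ltf, Camp, Ngp and Chil3 the change of the log2 ratio in a pair was at most 0.52 in size over 6 ratios, of which 4 kept their sign in 3 of 3 pairs. Ngp over Chil3 was higher in depolarized cells by 0.38, 0.46 and 0.52. The ratio of Ltf to Camp counts was 2.48, 2.06 and 2.02 in depolarized and 2.36, 1.68 and 2.24 in polarized libraries. Lcn2, Cd177, Mmp8, Olfm4 and Lyz2 had changes of at most 0.42 over their 10 ratios, of which 5 kept their sign. The ratio of Cd177 to Mmp8 was the steadiest of all, at 0.341, 0.315 and 0.278 in depolarized and 0.304, 0.306 and 0.330 in polarized libraries.

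Across the sets every ratio shifted one way. The sets divide the genes by the size of their fold changes, so a shift in this direction was built into them. All 20 ratios of a gene of the first set to one of the second were lower in depolarized cells in 3 of 3 pairs, by 0.27 to 1.79 on the log2 scale, a range that overlaps the changes within the sets. Ltf over Cd177 was 0.362, 0.643 and 0.398 in depolarized and 0.647, 1.15 and 1.03 in polarized libraries, without overlap. Ltf over Lcn2 was 0.209, 0.258 and 0.123 in depolarized and 0.315, 0.362 and 0.383 in polarized libraries, also without overlap. Of the 36 ratios that leave out Fcnb, which had 0 counts in 1 library, 29 had the same sign in 3 of 3 pairs and 6 did not overlap between the groups. All 6 of the latter and 20 of the 29 were ratios across the sets. The share of such ratios among other genes was not computed, so these counts are a description only. The printed ratios are of counts and so depend on gene length, while library scaling cancels in them.

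**Figure D3:**
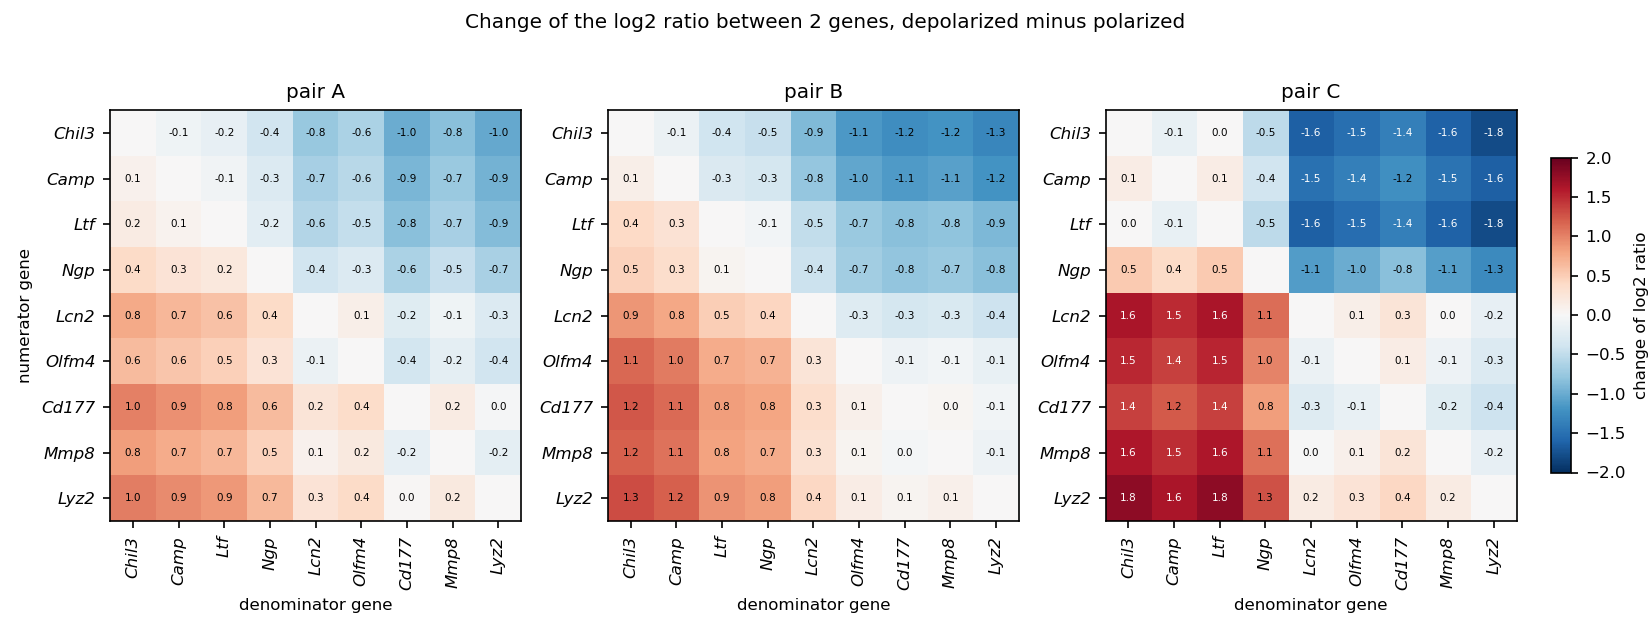
Change of the log2 ratio of the row gene to the column gene, depolarized minus polarized, in each of the 3 pairs, with colour from blue (lower in depolarized cells) to red (higher). The upper right and lower left blocks, which join Chil3, Camp, Ltf and Ngp with the other 5 genes, are shifted in every pair, and the blocks on the diagonal hold changes of at most 0.52 in size. Genes stand in the order of their fitted fold change, from which this pattern follows in part.

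Other genes with products in specific granules or their membrane had fold changes on both sides of 0. Of 18 genes listed, 17 were tested and Ptx3 had 0 counts in every library. Of the 17, 0 were called in either direction by edgeR, with 2 at an unadjusted p under 0.05 (Cybb and Anxa3), and DESeq2 called 0 as well. Since 0.241% of all genes tested were called lower, 0.0802% higher and 6.58% had an unadjusted p under 0.05, these counts do not set the list apart from other genes. The median log2 fold change was -0.08, with 9 fitted below 0 and 8 above. The 4 most abundant were Hp, the haptoglobin gene, Slpi, a protease inhibitor gene, Pglyrp1, the gene of a peptidoglycan recognition protein, and B2m, the light chain gene of class I molecules. Their log2 fold changes were 0.02 ± 0.21, 0.09 ± 0.19, -0.26 ± 0.20 and 0.11 ± 0.18 (SE). Hp was at 6207, 5398 and 5220.2 CPM in depolarized and 4816, 4746 and 6425 CPM in polarized libraries.

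Anxa3, an annexin gene, and Cybb, which encodes the membrane subunit of the NADPH oxidase, were named after their values were seen. Anxa3 was at 120.3, 88.9 and 75.1 CPM in depolarized and 148, 138 and 146 CPM in polarized libraries, without overlap, and had a log2 fold change of -0.70 ± 0.20 (SE, edgeR adjusted p 0.236). Cybb was at 870.4 ± 246 CPM in depolarized and 1181 ± 233 CPM in polarized cells (SD, n = 3), a log2 fold change of -0.53 ± 0.19 (SE, edgeR adjusted p 0.456). Without pair C, 2 of the listed genes were called lower (Cybb at -0.41 and Anxa3 at -0.45) and 3 higher (Itgb2 at 0.42, Hp at 0.29 and Slpi at 0.28), in a fit that called 5.13% of all genes lower and 4.95% higher.

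**Figure D4:**
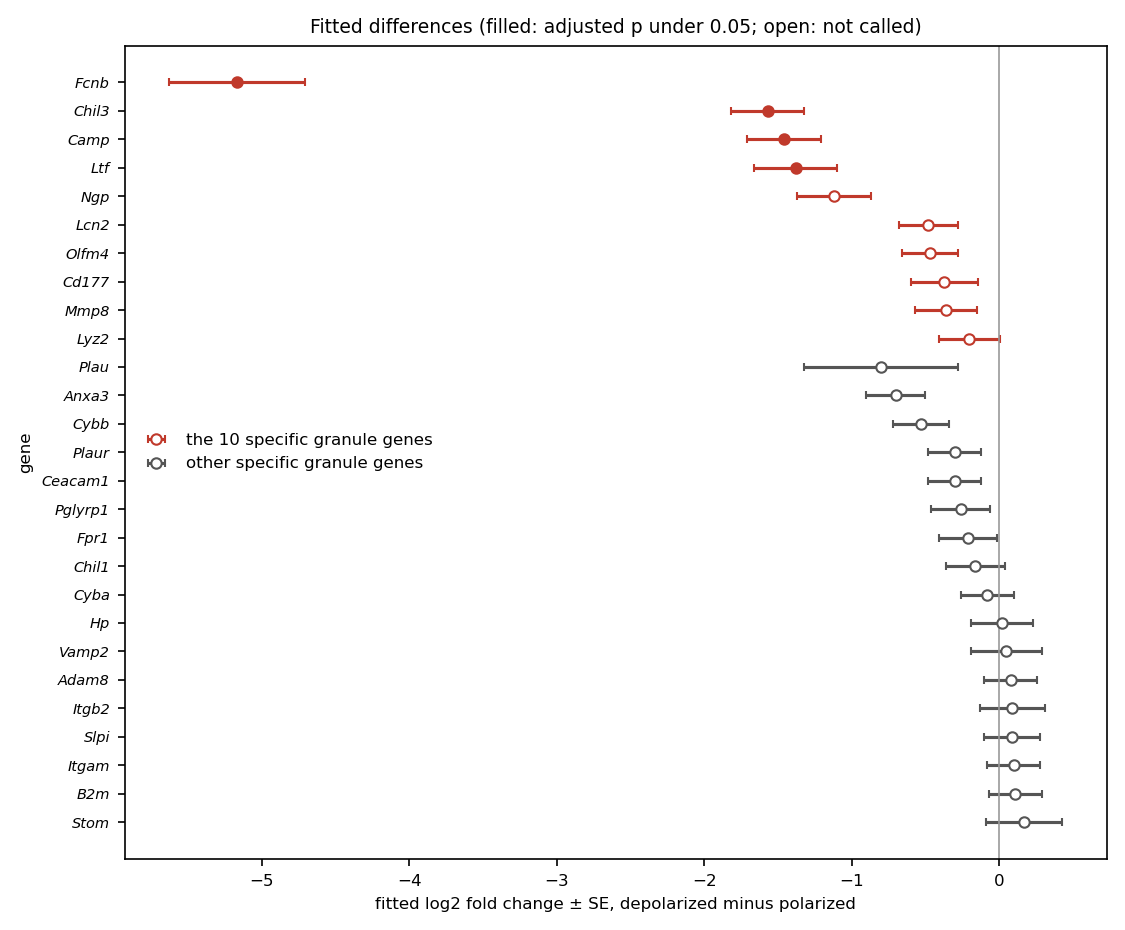
Fitted log2 fold change ± SE, depolarized minus polarized, of the 10 specific granule genes (red) and of 17 other genes with products in these granules (grey), filled where the edgeR adjusted p was under 0.05. Fcnb, Chil3, Camp and Ltf are the filled points, and the grey points lie on both sides of 0 with a median of -0.08.

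A list of 8 transcription factor genes known for their part in granule gene expression was also read. Of these 8, 0 were called by edgeR and 1 had an unadjusted p under 0.05, against 6.58% of all genes tested, so that nothing about the list follows from its counts. The median log2 fold change was -0.08. Cebpa stands in this list and among the early-stage markers. The gene at the unadjusted p was Cebpe, whose product C/EBP epsilon is required for specific granules in mice and humans; it was named after its values were seen. Cebpe was at 14.2, 19.6 and 16.0 CPM in depolarized and 22.6, 26.4 and 24.1 CPM in polarized libraries. Every depolarized library was below every polarized one, and the log2 fold change was -0.63 ± 0.20 (SE) with an edgeR adjusted p of 0.354. The most abundant of the list, Spi1 (PU.1), Cux1, Cebpd and Cebpb, had log2 fold changes of 0.11 ± 0.17, 0.19 ± 0.18, -0.13 ± 0.19 and -0.22 ± 0.19 (SE). Gfi1 was near the detection floor, at 0.156 to 0.592 CPM in depolarized and 0.528 to 0.880 CPM in polarized libraries.

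Genes whose level followed that of Ltf over the 6 libraries were ranked by Pearson's r on log2(CPM + 0.5), among genes with a mean log2 CPM of at least 5. The 5 non-members closest to Ltf were Sri (r = 0.990), Snrpd3 (0.987), Lta4h (0.980), Aprt (0.968) and I830127L07Rik (0.966). The libraries of both groups enter these values, which therefore contain the difference between the groups. Sri, which encodes the calcium-binding protein sorcin, was at 352, 365 and 303 CPM in depolarized and 373, 413 and 415 CPM in polarized libraries. Lta4h, which encodes leukotriene A4 hydrolase, was at 65.2, 75.7 and 55.1 CPM in depolarized and 71.6, 98.9 and 98.3 CPM in polarized libraries. Among the members, Camp (r = 0.979) and Ngp (0.962) were the closest to Ltf, followed by Lcn2 (0.899), Chil3 (0.838), Mmp8 (0.767), Cd177 (0.701), Olfm4 (0.380) and Lyz2 (0.123).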

How the data were processed

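RNA was measured in 6 libraries of sorted neutrophils, 3 depolarized and 3 polarized. Per the submitters' processing notes, reads were handled with STAR 2.0.4b, featureCounts 1.45, Subread and bcl2fastq on build GRCm38. The sources used here do not give the strand setting, the annotation release or how reads with several matches were treated. The deposited counts are raw counts per gene. The CPM deposited by the authors equal counts scaled to a common library total, and the RPKM deposited by the authors equal CPM per kilobase of the listed length. Symbols were matched for 40254 of 41388 genes, and the rest held 0.131% of the counts.

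Counts were tested with edgeR 4.0.16 in R 4.3.3: filterByExpr by group (9971 genes with 99.9% of the counts), TMM scaling, and the quasi-likelihood test with the pair as a block and adjustment over all genes tested. Fold changes are depolarized minus polarized. SE is approximate, taken from the fold change and its F statistic. The design text of the series describes the libraries as pairs. Deviations from the group means correlated with r of 0.10 in pair A, 0.34 in pair B and 0.04 in pair C across genes. Libraries within each group were not copies of each other (chi-square over degrees of freedom 32.2 to 113). Pair differences use log2(CPM + 0.5). Where the labels do not say how the pairs were made, p-values refer to these pairs only. The edgeR test moderates the spread of each gene by that of all genes, on 2 residual degrees of freedom with all pairs. A floor of 3 counts was used, which covers counting error only. Alternatives were DESeq2 1.42.0, robust edgeR, no block, other scaling, other filters, removal of a gene length trend and leaving out each pair. The script was tested on simulated data. Members, lists and motifs were chosen with earlier results of these data known. All 10 members are named whatever their values, as are the 4 most abundant genes of the other granule list and of the transcription factor list, the near copies, and the 5 genes closest to Ltf; genes outside this rule are marked in the text. Outside it also stand the listed genes called without pair C.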

Additional observations from a re-analysis of the deposited data

How the results depend on the processing

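Over 11 alternatives for each of the 10 genes, 92 of 110 fold changes kept their direction and their side of the threshold, 12 lost the call, 4 gained it and 2 reversed. The 92 include genes that were not called in either fit. Among the called genes, Ltf kept its call in 6 of 11 alternatives, Camp and Chil3 in 8 each and Fcnb in 10. Without the replicate block, 0 genes were called higher, 0 lower and 0 of the 10 granule genes, against 8, 24 and 4 in the paired fit, and Ltf (-1.37, adjusted p 0.242), Camp (-1.48, 0.225), Chil3 (-1.77, 0.152) and Fcnb (-5.26, 0.102) lost their calls. With DESeq2 and the block, 16 genes were called higher and 1 of the 10 lower, Fcnb (Ltf -1.37, Camp -1.45 and Chil3 -1.57 were not called). Robust edgeR lost Ltf (-1.38), and the stricter filter (4 higher, 8 lower) lost Ltf as well (-1.38). With no filter 50 genes were higher and 96 lower, and Ngp was called (-1.11). With the gene length trend removed 0 were higher, 7 lower and 1 of the 10 lower, Fcnb, with Ltf at -1.39, Camp at -1.39 and Chil3 at -1.54. RLE factors, or scaling without the 10 genes, changed no call among the 10.

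Leaving out each pair in turn gave 9 to 500 genes higher, 36 to 518 lower, 4 to 6 of the 10 genes lower, and 0 to 2 lower and 0 to 3 higher in the other granule list. Ngp ran from -1.47 to -0.69 and Lcn2 from -0.70 to -0.29. Cd177 ran from -0.66 to 0.01 and Lyz2 from -0.42 to 0.05, both above 0 without pair C alone. The cause of these changes was not tested. The mean log2 difference of the summed CPM stayed between -0.68 and -0.28 without a pair, against -0.48 with all. It was -0.66 without Lyz2 and -0.55 with TMM-adjusted library sizes. Depth limits Fcnb and Gfi1, which had few counts in depolarized cells. Groups of 3 libraries are too small for a test of single outlying libraries.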

Other observations

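The stretch of chromosome 9 that holds Camp, Ngp and Ltf was looked at after the values of these genes were seen. Of 38 other genes that the files list between Camp and Ltf, 13 passed the filter on low counts. Of these 13, 0 were called by edgeR, with 2 at an unadjusted p under 0.05, while 0.241% of all genes tested were called lower, 0.0802% higher and 6.58% had such a p, so the counts say nothing particular of these neighbours. Their median log2 fold change was -0.06. The median difference of these 13 genes was -0.04 in pair A, -0.14 in pair B and 0.35 in pair C. Smarcc1, which encodes a subunit of the SWI/SNF chromatin remodelling complexes, was fitted at 1.05 and Cdc25a, which encodes a cell cycle phosphatase, at -1.42, with edgeR adjusted p of 0.658 and 0.524. Nbeal2, a gene required for alpha granules of platelets, was at -0.12.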
